A study of Mus musculus with 4 samples.

Results

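The 10 immediate early genes described here are Fos, Jun, Junb, Egr1, Ier2, Ier3, Nr4a1, Atf3, Btg2 and Dusp1, taken by symbol from the 32285 gene rows of the deposited matrices. All 10 had a row, and 6016 unique molecular identifiers (UMIs, each standing for 1 captured transcript) in the nuclei kept came from them. The libraries were single-nucleus RNA libraries of mouse liver, 2 from mice fasted for 16 to 24 h (fasted 1 and fasted 2) and 2 from fed mice (fed 1 and fed 2). Each library was 1 preparation of nuclei from frozen liver pooled over 8 mice. Strain, sex, age, time of day and the order in which the preparations were made are not given in the sources used here. Both preparations of a group may have come from the same mice, on which the labels are silent, so p-values measure the spread between preparations, which may be technical.

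Immediate early genes are switched on within minutes of a signal, without new protein synthesis, by kinases that act on factors already bound to their promoters. Fos, Jun and Junb encode subunits of the dimeric transcription factor AP-1, and Atf3 encodes a partner of the same leucine zipper class that mostly represses. Egr1 encodes a zinc finger transcription factor and Nr4a1 an orphan nuclear receptor. Dusp1 encodes a phosphatase that switches mitogen-activated kinases off, Btg2 an antiproliferative cofactor of messenger RNA decay, and Ier2 and Ier3 small early response proteins, of which Ier3 acts in cell survival. In liver these genes respond to hormones that act through cyclic AMP, to growth factors, to cytokines, to partial hepatectomy and to the handling of tissue.

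After filtering, 29818 nuclei fell into 20 clusters, made without 56 early response genes, the members among them. Clusters were named from fixed markers, and the names are used without the ending "-like". Hepatocytes, with markers such as the albumin gene Alb, numbered 18828, endothelial nuclei 5404, Kupffer cell or macrophage nuclei 1980, stellate nuclei 1773, cholangiocytes 510 and B or plasma cells 420. These 6 types had at least 20 nuclei in every library and were tested, while T or NK cells, dendritic cells and mesothelial cells had fewer and were not. Total UMIs per library ran from 8078755 in fed 2 to 30955600 in fasted 1. Fed 2 stood apart, at 1282 UMIs for the median hepatocyte, where the other libraries had 2554 to 3239, and with 4.61% of its UMIs in Gm42418, to which ribosomal RNA reads map, against 0.204% to 1.01%. Pairs of libraries shared 12 to 42 cell barcodes. Most hepatocyte clusters came mainly from 1 library.

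Sequence just upstream of the members is shown first because several of these genes are textbook targets of the cyclic AMP response factor CREB, a factor of the fasting hormone glucagon. RefSeq windows of 250 bases before the gene start (GRCm38.p6) were at hand for 8 of the 10 members. There was no window for Egr1 or Ier2. Gene positions given with the results are GENCODE spans over all transcripts, so the RefSeq starts of Dusp1, Nr4a1 and Atf3, and with them the windows, lie inside those spans. The full cyclic AMP response element, TGACGTCA, was present in the windows of Btg2 and Dusp1, against 1.55% of 32851 windows of all genes. Its half-site TGACG, searched on both strands and contained in the full element, was present in 6 of the 8 windows, against 17.8% of all. The 4 windows below are those with a full element or with more than 1 half-site. They lie at chr1:134079156-134079405 (Btg2, minus strand), chr17:26508473-26508722 (Dusp1, minus strand), chr15:101266596-101266845 (Nr4a1, plus strand) and chr12:85473640-85473889 (Fos, plus strand), are written on the coding strand from 5′ to 3′, and have full elements and half-sites in capitals.
Btg2: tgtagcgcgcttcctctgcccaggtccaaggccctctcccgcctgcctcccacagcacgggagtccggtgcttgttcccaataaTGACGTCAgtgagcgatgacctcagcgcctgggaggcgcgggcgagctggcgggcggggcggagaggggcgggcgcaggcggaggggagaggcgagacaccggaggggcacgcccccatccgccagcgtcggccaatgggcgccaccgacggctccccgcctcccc
Dusp1: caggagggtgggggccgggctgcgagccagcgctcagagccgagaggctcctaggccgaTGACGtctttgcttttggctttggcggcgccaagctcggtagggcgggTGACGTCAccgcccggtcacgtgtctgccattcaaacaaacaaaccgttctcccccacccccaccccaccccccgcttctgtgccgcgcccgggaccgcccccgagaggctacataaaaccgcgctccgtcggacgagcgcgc
Nr4a1: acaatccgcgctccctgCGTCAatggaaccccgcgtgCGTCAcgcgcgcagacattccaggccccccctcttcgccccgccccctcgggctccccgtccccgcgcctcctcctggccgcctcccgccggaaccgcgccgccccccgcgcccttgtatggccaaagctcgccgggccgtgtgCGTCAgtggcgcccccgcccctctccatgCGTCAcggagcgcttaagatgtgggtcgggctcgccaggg
Fos: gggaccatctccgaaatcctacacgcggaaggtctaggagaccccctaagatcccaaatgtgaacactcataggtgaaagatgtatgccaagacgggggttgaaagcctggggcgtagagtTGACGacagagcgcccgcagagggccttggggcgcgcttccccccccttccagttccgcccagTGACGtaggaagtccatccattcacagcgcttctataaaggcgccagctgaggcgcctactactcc
In Btg2 the full element began 166 bases before the gene start, and in Dusp1 143 bases before it, with a further half-site at 191 bases. Nr4a1 had 4 half-sites, read on the strand opposite to the gene, which began at 233, 213, 69 and 40 bases. Fos had 2, at 129 and 66 bases, and a TATA box (TATAAA, present in 12.4% of all windows) at 33 bases. Junb and Atf3 had 1 half-site each. None of the 8 windows held TGAGTCA (the AP-1 site, in 4.46% of all windows), AAAGGTCA (a site for Nr4a receptors, 1.34%), GCGTGGGCG (a site for Egr factors, 0.536%) or the CArG box of the serum response element (1.47%), which says only that these letters are not in these windows. A match is a description of the letters and not of a bound factor.

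In hepatocytes no member passed the test over all genes for fasted against fed. Jun, Junb, Egr1, Ier2, Btg2 and Dusp1 would have passed the filter on low counts from either group alone, and all 6 had fold changes below 0. For 4 of these 6 both fasted libraries lay below both fed ones, which also held for 15.6% of the 13984 genes tested. Fos, Nr4a1, Atf3 and Ier3 passed the filter only through the fed libraries, where they were higher, so their values are given as a description. They enter no count of members, but are part of the sums and shares over all 10 members. The AP-1 gene Junb (GRCm38 chromosome 8, 84974484 to 84978718, minus strand) stood at 9.93 and 6.47 CPM (counts scaled to a common total per library, summed over hepatocyte nuclei) in fasted nuclei, against 22.4 and 21.7 CPM in fed nuclei. Fasted and fed libraries were apart, and the fed ones lay close together. This is a log2 fold change of -1.47 (SE 0.40, n = 2 libraries each; edgeR adjusted p = 0.558). Fos (chromosome 12, 85473890 to 85477273, plus strand), the partner that makes AP-1 dimers stable, was at 0.859 and 0.104 CPM in fasted nuclei, against 2.44 and 2.21 CPM in fed nuclei, with a log2 fold change of -2.30 (SE 0.97). These levels rest on 18 and 2 UMIs in fasted and 41 and 15 in fed. Within each group Jun was higher in the library numbered 2, at 8.74 and 18.8 CPM in fasted nuclei, against 12.3 and 50.3 CPM in fed nuclei. Its groups overlapped, and its log2 fold change of -1.24 turned to 0.21 without fed 2. Jun shares 689 bases with an antisense gene, Junos, and Junb shares 351 bases with Prdx2 on the opposite strand, so reads there may not be separable, because no source used here gives the strand setting of the counting. Dusp1 overlaps a sense intronic gene and a processed pseudogene on its own strand, by 1853 and 227 bases, and the pseudogene Gm8225 and the coding gene Ergic1 on the opposite strand, by 956 and 640 bases, so its counts are uncertain in the same way.

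**Figure D1:**
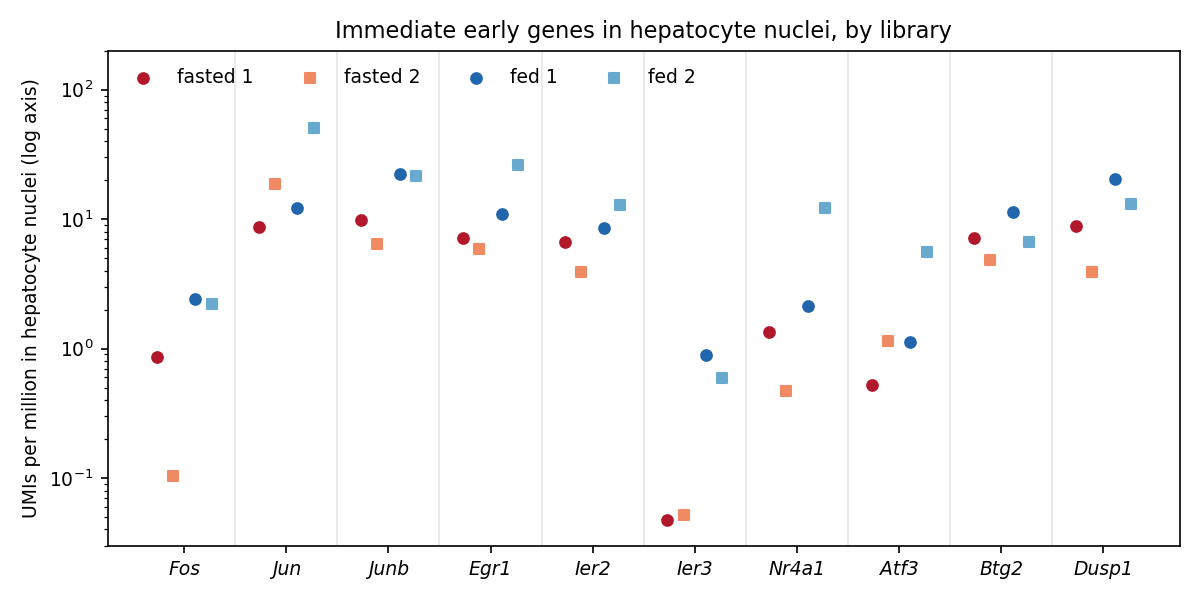
Level of each of the 10 immediate early genes in hepatocyte nuclei, in CPM on a log axis, with 1 point per library. Both fasted libraries (red) lie below both fed ones (blue) for 4 of the 6 members that passed the low-count filter from either group. These 4 are Junb, Egr1, Ier2 and Dusp1, and the same held for 15.6% of the 13984 genes tested. Fos, Nr4a1, Atf3 and Ier3 passed the filter only through the fed libraries and are shown as a description.

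The other transcription factors were highest in fed 2, the shallowest library. Egr1 was at 7.11 and 5.90 CPM in fasted nuclei, against 10.9 and 26.4 CPM in fed nuclei (log2 fold change -1.58, SE 0.56). Nr4a1, which in liver is induced by glucagon and cyclic AMP, was at 1.34 and 0.466 CPM in fasted nuclei, against 2.14 and 12.1 CPM in fed nuclei (log2 fold change -3.04, SE 1.03; edgeR adjusted p = 0.648). Atf3 was at 0.525 and 1.14 CPM in fasted nuclei, against 1.13 and 5.61 CPM in fed nuclei (log2 fold change -2.03, SE 0.98), and its groups overlapped. Fed 2 thus held 82 of the 155 hepatocyte UMIs of Nr4a1 and 38 of the 90 of Atf3. Without fed 1 the log2 fold changes of Egr1 and Nr4a1 were -2.13 and -3.85, and without fed 2 they were -0.71 and -1.21. With no filter on low counts Nr4a1 passed (edgeR adjusted p = 0.0119), but its values stay a description, since most of its UMIs came from fed 2. Of 13 alternative settings each, Nr4a1 passed in 2 and Egr1 in 1. In the fits without a fed library the lone fed library is assumed to vary like the fasted ones.

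Of the feedback genes, Dusp1 (chromosome 17, 26505590 to 26562128, minus strand) stood at 8.93 and 3.88 CPM in fasted hepatocytes and at 20.4 and 13.0 CPM in fed ones (log2 fold change -1.42, SE 0.53; edgeR adjusted p = 0.681). Within each group it was higher in the library numbered 1. Btg2 (chromosome 1, 134075170 to 134079120, minus strand) stood at 7.11 and 4.82 CPM in fasted nuclei, against 11.3 and 6.64 CPM in fed nuclei, with overlap and the smallest fold change of the members (-0.63, SE 0.48). Ier2 was at 6.68 and 3.88 CPM in fasted nuclei, against 8.49 and 12.8 CPM in fed nuclei (-1.06, SE 0.51). Ier3 (chromosome 17, 35821684 to 35822923, plus strand) had 1 UMI in each fasted library and 15 and 4 in the fed ones. The ratio of its fasted to its fed rate was 0.0617, with an exact counting interval of 0.00697 to 0.256 that leaves out the spread between preparations.

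In hepatocytes edgeR called 1 of 13984 genes at an adjusted p under 0.05, or 0.00715%, and DESeq2 called 165, none of which was a member. The 6 members that passed the filter from either group had a median log2 fold change of -1.33 and 3 had an unadjusted p under 0.05, against a median of -0.0055 over all genes, of which 50.5% were below 0 and 950 had such a p. Summed over all 10 members, Fos, Nr4a1, Atf3 and Ier3 among them, the level was 51.3 and 45.5 CPM in fasted nuclei, against 92.4 and 151 CPM in fed nuclei. In fed 2, 50.3 CPM of this sum was Jun, whose groups overlapped. With counts thinned to 1000 UMIs per nucleus, 6.90% and 4.59% of fasted hepatocytes had at least 1 UMI of any of these 10 members, against 10.7% and 14.5% of fed ones. The thinning left out 146 and 62 fasted and 162 and 1228 fed nuclei. Unthinned, the shares were 17.1% and 16.4% in fasted and 24.0% and 21.1% in fed, and no hepatocyte held UMIs of more than 4 of the members. No cell type of liver is known to lack these genes, so the share that free RNA gives could not be set beside them. As a gauge of free RNA, 73.4% and 48.1% of equally thinned endothelial nuclei held Alb in fasted and 54.6% and 73.9% in fed. These shares rest on 563 and 337 fasted and 538 and 23 fed nuclei deep enough to thin, so that of fed 2 is loose.

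Markers of other cell types differed between the hepatocyte sums of the libraries. The 8 markers of Kupffer cells summed to 7.97 and 1.40 CPM in fasted hepatocytes and to 5.35 and 17.0 CPM in fed ones. Those of endothelial cells summed to 25.6 and 6.27 CPM in fasted nuclei, against 24.7 and 56.2 CPM in fed nuclei, and those of stellate cells to 22.4 and 12.5 CPM in fasted nuclei, against 47.9 and 61.1 CPM in fed nuclei. All 3 sums were highest in fed 2, as Nr4a1, Egr1 and Atf3 were. All 8 endothelial markers had counts in every library, while 1 Kupffer marker in each fasted library and 2 and 3 stellate markers in the fasted libraries were at 0. Their part in the members' values was not tested.

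Hepatocytes of fed 1 fell into 3 clusters of over 300 nuclei, and the summed level of all 10 members differed between them. One, led by the acute phase genes Saa2 and Saa1 and the chemokine gene Cxcl1, held 1771 nuclei, where the members summed to 139 CPM (95% Poisson interval 130 to 149). In the 2716 nuclei led by Hsd3b5 and Cyp2c70 they summed to 70.9 CPM (65.5 to 76.6), and in the 519 nuclei led by Cyp2c40 to 53.0 CPM (43.3 to 64.3). Among the members Junb differed most in level, at 47.8 CPM (42.4 to 53.7) in the Saa2 cluster against 9.20 CPM (7.32 to 11.4) in the Hsd3b5 cluster and 7.72 CPM (4.32 to 12.7) in the Cyp2c40 cluster. Egr1 and Btg2 were also higher in the Saa2 cluster, at 17.2 and 17.6 CPM against 7.74 and 8.86 CPM in the Hsd3b5 cluster. Dusp1 was not, at 18.4 CPM (15.1 to 22.3) against 23.0 CPM (19.95 to 26.4). These clusters come from 1 library, so there is no test, and the intervals cover counting error only. Median depth was alike, at 2507 UMIs in the Saa2 cluster and 2576 in the Hsd3b5 cluster. Without the Saa2 cluster, a setting chosen after seeing the data, the log2 fold change of Junb between fasted and fed hepatocytes was -0.98, and those of the other members that could be tested lay between -2.98 and -0.35. Over all hepatocyte clusters of at least 300 nuclei, the members' sum lay between 37.2 and 70.5 CPM in the fasted libraries and between 53.0 and 159 CPM in the fed ones.

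**Figure D2:**
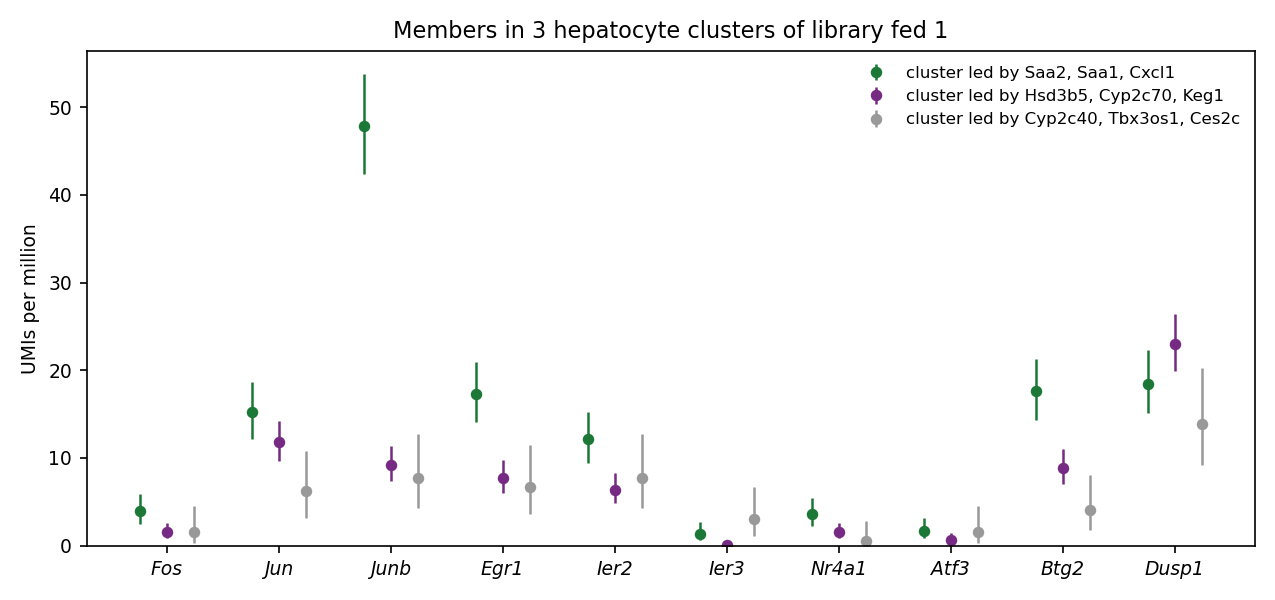
Level of each member in CPM in the 3 hepatocyte clusters of library fed 1, named by their leading genes, with exact Poisson 95% intervals as bars. Junb is at 47.8 in the cluster led by Saa2 and below 10 in the other clusters, while the intervals of Dusp1 overlap between the clusters led by Saa2 and Hsd3b5.

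Along the lobule, Btg2 and Junb were lower near the central vein. Hepatocytes were ranked in each library by a score from 9 central and 11 portal landmark genes, none of them a member, split into 3 zones of equal number, and the central and portal zones were compared within libraries. Btg2 was at 3.99, 2.68, 5.58 and 4.4996 CPM in the central zone of fasted 1, fasted 2, fed 1 and fed 2, against 12.6, 6.69, 14.9 and 6.38 CPM in the portal zone. It was lower centrally in 4 of 4 libraries, by a log2 fold change of -1.39 (SE 0.21; edgeR adjusted p = 9.90e-05). Junb was at 7.01, 6.10, 16.7 and 6.43 CPM in the central zone and at 12.8, 6.51, 24.7 and 23.4 CPM in the portal zone of the same libraries. It too was lower centrally in 4 of 4, by -0.69 (SE 0.19; edgeR adjusted p = 0.0165), although the gap in fasted 2 was small. That call was lost with DESeq2 (adjusted p = 0.0701), without fasted 1 (0.1095) and with the score taken at 1000 UMIs (0.0503).

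These were 2 of the 6 members that passed the filter from either zone, against 8.27% of 12268 genes called lower in the central zone. The other 4 of these, Egr1, Dusp1, Ier2 and Jun, had fold changes from -0.60 to -0.30. Fos and Nr4a1 passed the filter only through the portal zone, where they were higher, Atf3 only with both zones together, and Ier3 not at all. Egr1 was lower centrally in 3 of 4 libraries, at 5.78, 6.10, 7.60 and 13.5 CPM in the central zone against 9.18, 4.83, 12.8 and 32.6 CPM in the portal zone (log2 fold change -0.60, SE 0.21; edgeR adjusted p = 0.0687). Dusp1 was at 6.88, 5.51, 11.5 and 8.999 CPM centrally and at 11.5, 3.16, 26.8 and 9.22 CPM in the portal zone (-0.60, SE 0.25; edgeR adjusted p = 0.149). For both of these fasted 2 went the other way, and both passed without fasted 2 (adjusted p = 0.0113 for Egr1 and 0.00768 for Dusp1). Whether the central to portal difference itself changed with fasting was tested as an interaction, and no member passed (smallest edgeR adjusted p = 0.723), against 0.538% of genes.

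**Figure D3:**
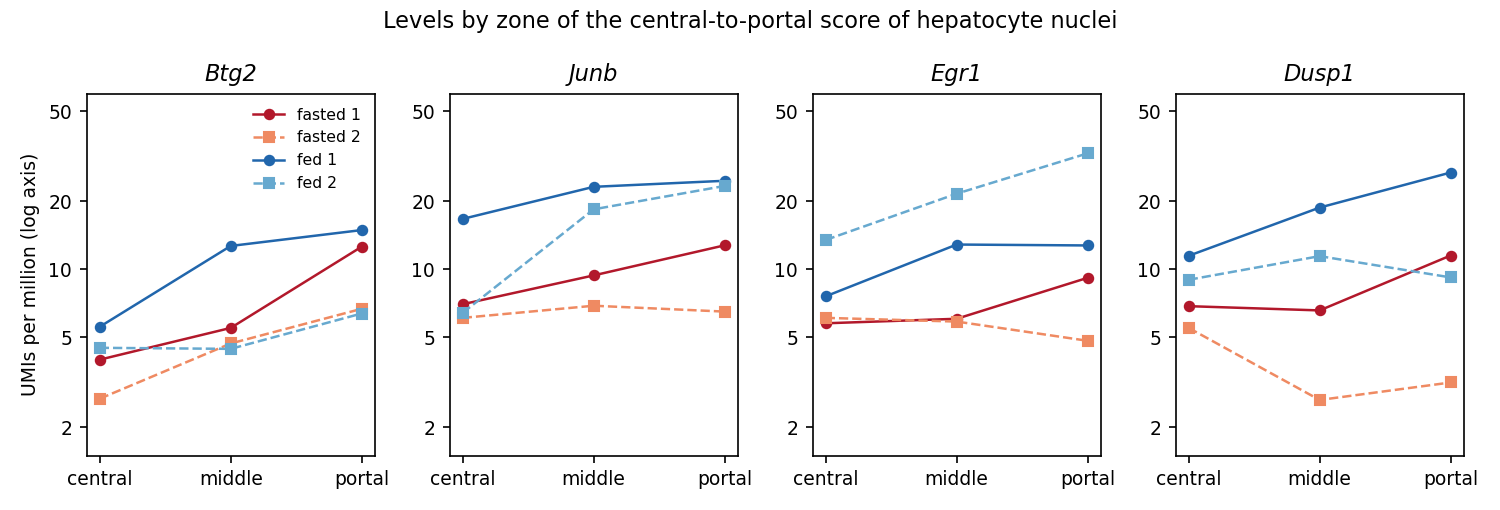
Levels of Btg2, Junb, Egr1 and Dusp1 in CPM on a log axis in the central, middle and portal zone of hepatocyte nuclei, 1 line per library (red fasted, blue fed; dashed for the libraries numbered 2). Btg2 and Junb are lower in the central than in the portal zone in all 4 libraries, while Egr1 and Dusp1 are not in fasted 2.

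The level of Nr4a1 was higher in Kupffer and endothelial nuclei than in hepatocytes, which is given as a description. In Kupffer cell or macrophage nuclei Nr4a1 (chromosome 15, 101254269 to 101274795, plus strand) was at 34.9 and 42.9 CPM in fasted nuclei, against 44.8 and 55.3 CPM in fed nuclei, above the hepatocytes of the same library in 4 of 4. Against hepatocytes its log2 fold change was 4.21 (SE 0.56). Fos was at 9.83 and 4.15 CPM in fasted nuclei, against 13.4 and 18.4 CPM in fed Kupffer nuclei, on 23 UMIs in all. Its log2 fold change against hepatocytes was 3.02 (SE 0.66). Both genes passed the filter only through the Kupffer sums, where they were higher, so their values are a description and enter no count. Btg2 was also higher, by 1.03 (SE 0.36; edgeR adjusted p = 0.0238), a call lost without fasted 1 (adjusted p = 0.225), fasted 2 (0.119) or fed 1 (0.0524) and without the low-count filter (0.0644). So 1 of the 6 members that passed the filter from either cell type was called higher in Kupffer nuclei, against 17.8% of genes. Dusp1, at a log2 fold change of 1.38 (SE 0.52; edgeR adjusted p = 0.0719), passed in 4 of 8 alternatives, of which 1 was with no filter (0.000578). With each library left out, its log2 fold change ran from 0.41 to 1.71.

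In endothelial nuclei Dusp1 and Btg2 were called higher than in hepatocytes. They were 2 of the 6 members that passed the filter from either cell type, against 24.4% of genes called higher. Nr4a1 passed it only through the endothelial sums, where it was higher, so its values are a description. It was at 4.53 and 1.88 CPM in fasted nuclei, against 6.59 and 32.1 CPM in fed endothelial nuclei (log2 fold change 1.47, SE 0.43). These levels rest on 10 and 2 UMIs in fasted and 12 and 4 in fed. Btg2 was at 17.7 and 15.1 CPM in fasted nuclei, against 13.2 and 16.1 CPM in fed nuclei (0.87, SE 0.31; edgeR adjusted p = 0.0245). That call was lost without fasted 1 (adjusted p = 0.225), fasted 2 (0.188) or fed 2 (0.0566) and without the low-count filter (0.0592). Dusp1 was at 58.5 and 17.9 CPM in fasted nuclei, against 45.6 and 0 CPM in fed nuclei, where 0 of 124538 UMIs allows up to 24.1 CPM. It was above hepatocytes in 3 of 4 libraries, by 1.66 overall (SE 0.45; edgeR adjusted p = 0.0197), a value that moved to 1.07 without fasted 1 with the call kept. This comparison was not rerun with the entries stored as 0, described below, counted as 1.

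In stellate nuclei none of the 6 members that passed the filter from either cell type was called higher, against 18.6% of genes. Ier3 passed it only through the stellate sums, so its values are a description. It had 4 and 2 UMIs in fasted and 5 and 0 in fed stellate nuclei, or 2.29 and 4.63 CPM in fasted nuclei and 6.82 and 0 CPM in fed nuclei. All hepatocytes together held 21 UMIs of Ier3, and cholangiocytes 3. Of the 6 members that passed the filter from either side in cholangiocytes, and the same 6 in B or plasma cells, none was called, against 12.3% and 7.23% of genes called higher there.

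**Figure D4:**
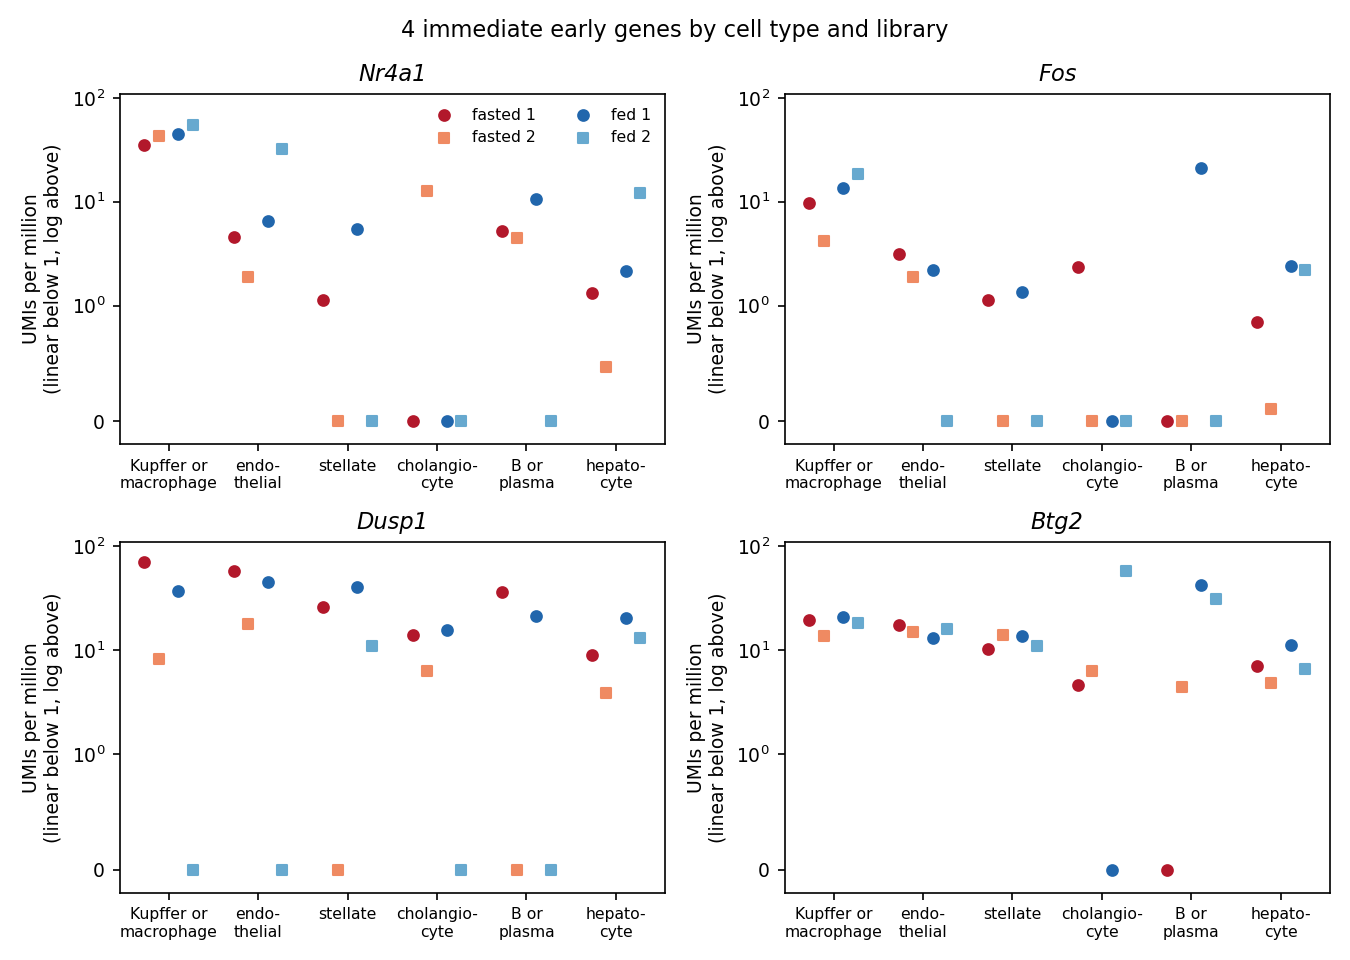
Levels of Nr4a1, Fos, Dusp1 and Btg2 in CPM in 6 liver cell types, 1 point per library, on an axis that is linear below 1 and logarithmic above. Nr4a1 lies at 34.9 or more in every library of Kupffer cell or macrophage nuclei, and Dusp1 is at 0 in the endothelial nuclei of fed 2.

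Levels in the other cell types carry hepatocyte RNA as well. In Kupffer nuclei the 8 hepatocyte markers summed to 12851 and 11311 CPM in the fasted libraries and to 8771 and 7792 CPM in the fed ones. In hepatocytes the same sum was 19526 and 14194 CPM in the fasted libraries and 16495 and 8617 CPM in the fed ones. No hepatocyte marker sum in endothelial or stellate nuclei was below 4401 CPM. Its part in these comparisons was not tested. The scaling also sets the direction of small differences: TMM scaling lowered the median over all genes by 0.15 to 0.38 on the log2 scale in the comparisons of cell types, relative to no scaling. The members called higher kept their calls without it.

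No member passed for fasted against fed in another cell type, of 5 tested in Kupffer nuclei, 6 in endothelial and 2 in stellate nuclei, where 0.0122%, 0.059% and 0.0398% of genes were called. From either group alone, only Nr4a1 in Kupffer nuclei and Jun, Egr1 and Btg2 in endothelial nuclei would have passed the low-count filter. The other members tested, and those in stellate nuclei, passed it through a single group or through both together. In cholangiocytes and B or plasma cells no member had enough counts. Nr4a1 in Kupffer nuclei had a log2 fold change of -0.30 (SE 0.54; edgeR adjusted p = 1.00). Dusp1 was at 71.0 and 8.31 CPM in fasted nuclei, against 37.3 and 0 CPM in fed Kupffer nuclei (0.62, SE 1.04), and there as in endothelial nuclei it was higher in the library numbered 1 of each group. Its log2 fold change turned to -1.48 in Kupffer nuclei and to -0.81 in endothelial nuclei without fasted 1.

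Whether fasting acted otherwise in a cell type than in hepatocytes was tested as an interaction. No member passed in Kupffer nuclei (9 tested, against 0.289% of genes called), endothelial nuclei (9, 0.324%), stellate nuclei (9, 0.25%), cholangiocytes (8, 0.00788%) or B or plasma cells (8, 0.0244%). The nearest was Dusp1 in Kupffer nuclei, with a difference in log2 fold change of 1.85 at an unadjusted p of 0.00286 and an edgeR adjusted p of 0.405. In endothelial nuclei the same gene had an adjusted p of 0.520, which was 0.0168 without fed 2.

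Dusp1 also stood apart in how its entries were stored. The deposited matrices hold entries with the value 0, between 13.2% and 17.0% of stored entries per library, by a step that no source used here describes. For Dusp1 1458 entries were stored as 0 and 1041 were above 0, so that 58.3% were 0, rank 17 of the 13686 genes with at least 100 entries. Ier2 (41.9%) and Junb (39.0%) were also above the 95th percentile of genes, 31.5%, where the median gene had 16.3%. Egr1 and Btg2 were at 26.7% and 27.0%, and Fos, Jun, Nr4a1 and Atf3 lay between 13.1% and 21.6%. Ier3 had 26 entries at 0 and 52 above 0. In hepatocytes Dusp1 had 452 and 140 entries at 0 in fasted and 561 and 65 in fed, or 73.0% and 66.0% of its entries in fasted and 65.3% and 43.3% in fed. With each stored 0 counted as 1, Dusp1 was at 28.4 and 10.4 CPM in fasted nuclei, against 48.7 and 20.4 CPM in fed hepatocytes, with a log2 fold change of -0.84, and no member passed. In endothelial nuclei 26.3% and 29.6% of its entries in fasted and 38.4% in fed 1 were at 0. Counted as 1 there, Dusp1 was at 69.4 and 23.6 CPM in fasted nuclei, against 63.9 and 7.02 CPM in fed endothelial nuclei. In fasted 1, fasted 2 and fed 1 its ratio to hepatocytes was smaller this way. The comparisons of cell types were not rerun with stored zeros counted as 1.

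**Figure D5:**
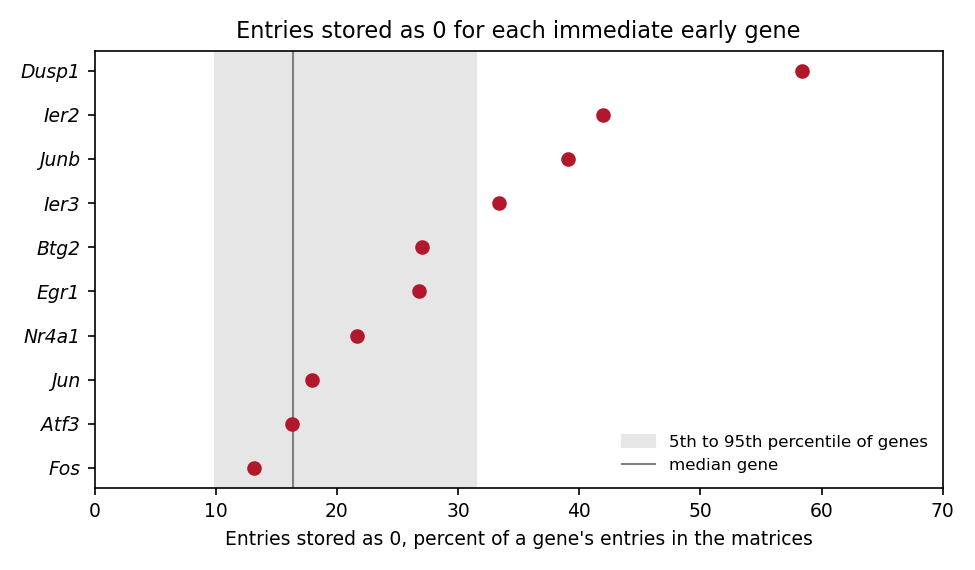
Entries stored as 0 in the 4 matrices, as a percent of all stored entries of each member. The line is the median of the 13686 genes with at least 100 entries and the band spans their 5th to 95th percentile, and Dusp1 lies at 58.3%, beyond the band with Ier2, Junb and Ier3.

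Other genes of the same pathways were read from 7 lists, in hepatocytes, and no gene of any list passed in edgeR for fasted against fed. Unlike the members, these lists were not split by the group that took a gene past the low-count filter. Their counts and medians include genes that passed through the fed or the fasted libraries alone, such as Saa2 through the fed ones. For such genes the filter favours the direction of that group. Of 6 AP-1 partners tested, 5 had fold changes below 0 (list median -0.41). The repressor Maff was at 4.34 and 2.07 CPM in fasted nuclei, against 4.04 and 13.0 CPM in fed nuclei, and Jund, the constitutive Jun protein, at 7.78 and 15.3 CPM in fasted nuclei, against 13.7 and 40.9 CPM in fed nuclei, like Jun higher in the libraries numbered 2. Of 10 other early transcription factors 8 were below 0 (median -0.89). Klf10, an early gene of the TGF-beta pathway, was at 18.0 and 19.99 CPM in fasted nuclei, against 34.5 and 36.5 CPM in fed nuclei (-0.94, SE 0.34), without overlap. Cebpb, an acute phase factor, was at 131 and 18.4 CPM in fasted nuclei, against 152 and 15.2 CPM in fed nuclei, and so followed the number of the library.

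Feedback inhibitors of early signalling had 13 of 18 below 0 (median -0.74). Among them Spry4, an inhibitor of growth factor signalling, was at 2.05 and 3.003 CPM in fasted nuclei, against 6.41 and 16.2 CPM in fed nuclei (-2.21, SE 0.66; edgeR adjusted p = 0.617). Socs3, an inhibitor of cytokine signalling, was at 5.68 and 1.86 CPM in fasted nuclei, against 16.3 and 5.31 CPM in fed nuclei, with overlap. Receptors, kinases and factors upstream of the members had 17 of 28 below 0 (median -0.09), led by the receptor gene Egfr at 2979 and 3494 CPM in fasted nuclei, against 11109 and 3397 CPM in fed nuclei.

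Targets of cyclic AMP and glucocorticoids, which fasting hormones drive, lay the other way, with 11 of 13 above 0 (median 0.66). The 2 below 0 were Crem (-0.31) and Sik1 (-0.35), both with overlap. Ppargc1a, a coactivator of gluconeogenesis, was at 266 and 276 CPM in fasted nuclei, against 144 and 57.4 CPM in fed nuclei (1.42, SE 0.44; edgeR adjusted p = 0.630), and Angptl4, a lipase inhibitor, at 85.8 and 77.5 CPM in fasted nuclei, against 40.9 and 24.5 CPM in fed nuclei (1.30, SE 0.35). Both were without overlap. Heat shock genes, a sign of stress, had 6 of 11 above 0 (median 0.16). Hsp90ab1 was at 161 and 272 CPM in fasted nuclei, against 203 and 107 CPM in fed nuclei (0.48), with overlap. Hspe1 was at 24.8 and 31.2 CPM in fasted nuclei, against 23.8 and 16.2 CPM in fed nuclei (0.46), without overlap. Hsp90aa1 was at 103 and 70.9 CPM in fasted nuclei, against 210 and 26.7 CPM in fed nuclei (-0.43), with overlap. Acute phase genes had 11 of 13 below 0 (median -0.96), and Saa2 was at 2.96 and 0.414 CPM in fasted nuclei, against 346 and 0.886 CPM in fed nuclei, so that its level rests on fed 1 alone.

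The genes whose pattern was most like that of the members were sought over 24 sums, 6 cell types in 4 libraries, among 9244 genes of at least 10 CPM on average. By Pearson correlation of log2(CPM + 1) with the mean of the members, the nearest were Adam10 (0.81), which sheds cell surface proteins, Xaf1 (0.79), Ctsb (0.77), a lysosomal protease, Bach2os (0.75), Hmox1 (0.74), which degrades haem, Zfp992 (0.74), the scavenger receptor gene Msr1 (0.73) and Ogfrl1 (0.73). Adam10 averaged 256 CPM in Kupffer nuclei, 180 CPM in endothelial nuclei and 121 CPM in hepatocytes, and Ctsb 356, 88.5 and 43.5 CPM. The sums share libraries and depth, and the smallest ones hold few counts, so the correlations describe these sums only.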

How the data were processed

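Single-nucleus RNA was measured in 4 liver libraries, 2 fasted and 2 fed. The submitters' processing notes name Cell Ranger 6.0 and mm10, and the deposited matrices hold raw UMI counts, some stored as 0. No source used here says whether intronic reads were counted.

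Barcodes were kept with 500 or more genes and a mitochondrial share of 5% or less. The barcodes with the highest Scrublet scores were removed, at 0.8% per 1000 barcodes, since its own threshold marked at most 1 barcode in 3 libraries. Clusters came from scanpy 1.11.5 and leidenalg 0.10.2. Counts were summed per library and cell type or zone and tested with edgeR 4.0.16 in R 4.3.3 (quasi-likelihood, TMM, filterByExpr), with library as a block within libraries, adjusted by Benjamini-Hochberg over all genes at 0.05. DESeq2 1.42.0 was the alternative. The SE divides the log2 fold change by the root of F. Some of the edgeR comparisons were also run on simulated counts, and the outcome is not given here. Positions are from GENCODE on GRCm38, the assembly of mm10. Position scores used counts thinned to 1500 UMIs, which left out shallower nuclei (1570 of 3807 fed 2 hepatocytes were scored).

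The members and lists were chosen with earlier results of these data known. All 10 members are named, with up to 4 genes per further list, those with the largest absolute log2 fold change in hepatocytes at 5 CPM or more (2 are shown for most lists), and 8 genes by likeness. Crem and Sik1 are named besides, as the 2 genes of their list below 0. Intervals and limits from a count of 0 (3 counts) cover counting error only.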

Additional observations from a re-analysis of the deposited data

How the results depend on the processing

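The number of genes called for fasted against fed hepatocytes (1) was 276 with no filter on low counts, 165 with DESeq2, 10 with the replicate number as a block, 0 with stored zeros counted as 1, and 3 to 235 when each library was left out in turn. At an unadjusted p under 0.05 edgeR had 950 genes. Summed over 5 other cell types the count (12) was 99 without the filter, 41 with DESeq2, 351 with the block and 58 to 224 with each library left out. The replicate numbers carry no stated batch. Deviations of same-numbered hepatocyte libraries correlated at 0.424 across genes, over only 2 pairs, so the blocked fits are not read as paired ones, and no member passed in them. The interaction of fasting with position (66 genes) gave 106 without the filter, 12 with DESeq2 and 13 to 255 with each library left out. That of fasting with cell type (118) gave 211, 40 and 22 to 525 under the same settings. The counts for central against portal zones and for cell types against hepatocytes stayed within 1.5 times of 1991 and 21610 under every alternative run. Only the 6 members that passed the filter from either side are counted here. For fasting in hepatocytes Junb, Ier2, Btg2 and Dusp1 kept their direction and side of the threshold in 13 of 13 alternatives. Jun and Egr1 did so in 12 of 13. For position Btg2, Ier2 and Jun did so in 9 of 9 alternatives, Dusp1 in 7 of 9, and Junb and Egr1 in 6 of 9. With each library left out, Jun in hepatocytes ran from -1.96 to 0.21, Dusp1 for fasting in Kupffer nuclei from -1.48 to 7.54 and in endothelial nuclei from -0.81 to 8.48, where the cause was not tested. Without the low-count filter Nr4a1, whose values are a description, passed in hepatocytes (edgeR adjusted p = 0.0119). So did Egr1 and Dusp1 for position, and Dusp1 in Kupffer nuclei against hepatocytes. Without fed 1, Ier3 did not pass the filter in the stellate comparison. Depth limits Fos, Ier3 and Atf3, with 122, 52 and 113 UMIs over all nuclei.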
